A study of Homo sapiens with 96 samples.

Results

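Cholesterol synthesis and uptake are covered here by 30 named genes, the enzymes of the mevalonate and sterol pathway, the regulators of the sterol-sensing factor SREBP2, and proteins of sterol transport and storage. The genes were listed by name and found by symbol in the platform annotation, and where several probes carried a symbol the probe with the highest mean over all arrays was taken. Of the 30 genes, 29 were measured, among 18571 genes tested in all. FDFT1, squalene synthase, was not among the annotated symbols used and was not analysed here.

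The cells were LAPC4, a line grown from human prostate cancer, and RNA was hybridised to 96 Illumina expression arrays. In 28 groups of 3 arrays the medium held a chemical together with 0.33 nM of the synthetic androgen R1881, 6 arrays came from R1881 alone, and 6 came from the vehicle DMSO at 0.05% without R1881. All exposures lasted 6 h, so every chemical was tested on a background of androgen. The dose was 0.5 µM for the steroids Trenbolone, Dihydrotestosterone, Norethindrone, MethylTestosterone and Testosterone propionate. It was 10 µM for Triticonazole, Progesterone, Androstenedione, Mifepristone and Dexamethasone. It was 20 µM for Cyproterone acetate, Spironolactone, Dehydroepiandrosterone, Finasteride, Prochloraz, Tebuconazole, BisphenolA, DDE, Flutamide, Hydroxyflutamide, Bicalutamide, Vinclozolin, Procymidone, Iprodione, Linuron, Fenitrothion, Atrazine and Apigenin. The cells grew in medium with serum, and the design names 3 experiments on separate days without saying which array belongs to which day. The control arrays are numbered 1 to 3 and 1b to 3b, and the labels do not say whether the b arrays are separate cultures. Arrays of the same control and number correlated at 0.9705 to 0.9977. They were used as separate samples, so the p-values measure only the spread between these arrays, which may be partly technical, and for the members' calls the results with such arrays averaged are given as well.

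Cells make cholesterol from acetyl-CoA by way of mevalonate, isoprenoid units, squalene and lanosterol. When sterol in the endoplasmic reticulum is low, SCAP escorts SREBP2 to the Golgi, where it is cleaved and freed to switch on nearly every gene of the pathway; when sterol is plentiful, INSIG1 and INSIG2 hold SCAP back. INSIG1 is itself an SREBP target, and prostate cancer cells use cholesterol both as membrane material and as the starting point of steroid hormones.

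The labelled cell type was checked against its markers. The 8 measured luminal epithelial markers lay between the 66.2 (KRT19) and 97.9 (FOXA1) percentile of their arrays on average. The 3 measured basal markers lay between the 13.1 (KRT5) and 61.9 (KRT15) percentile, the 5 fibroblast markers between 16.6 (LUM) and 51.3 (COL1A1), and the 3 measured leukocyte markers between 14.1 (CD3E) and 55.8 (CD68). TP63 was not listed. The arrays were split into 2 profiles of genome-wide expression, A with 34 arrays and B with 62. Between them 61.3% of all genes differed, but the split was made on these same values, so a high share was built in. The members were left out of the split. Dexamethasone, Norethindrone, Progesterone and Testosterone propionate had 0 arrays in A, so profile and chemical were not independent. Of the 29 cholesterol genes, 14 were higher and 11 lower in profile B than in profile A. In addition, the arrays Apigenin 2, MethylTestosterone 2, Testosterone propionate 2, Flutamide 3, Trenbolone 2 and Spironolactone 2 were taken to stand apart from both, by name and not by a cut. Their median over the 29 genes, against the mean of the R1881 arrays, ran from -1.67 (Trenbolone 2) to -0.15 (MethylTestosterone 2). R1881 array 2b also had -0.15. Each comparison was therefore fitted in limma on all 96 arrays and again on 90 arrays, without those 6 and with the profile as a block. A gene is called when its Benjamini-Hochberg adjusted p over all 18571 genes is under 0.05, and "rose" and "fell" are used of calls in the 90-array fit. Levels are log2 intensities and changes are differences of log2 values.

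Most members gave a clear signal. The probe of STARD4, a sterol carrier, was above the median of its array in only 4 of 96 arrays and that of SOAT1, which esterifies cholesterol for storage, in 62, so both sat near the dim end of the scale. The other 27 members were above the array median in at least 90 arrays. Where a called gene had further probes, 19 of 19 such comparisons had the same sign as the chosen probe. They cover DHCR7, INSIG1 and LSS only and share their R1881 arrays. The further DHCR7 probe changed by 0.57 to 1.07, against 0.70 to 1.22 for the chosen one. Those of LSS and INSIG1 were dimmer and changed less in every comparison. LSS under Prochloraz had 0.06 and 0.03 against 0.58, and INSIG1 under Progesterone 0.13 against 0.91.

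The proximal promoters of the members are of interest because SREBP2 acts together with the CCAAT-binding factor NF-Y. In the RefSeq promoter table (GRCh38.p14) 27 of the 29 measured members had an entry, and the 250 bases before the start were searched on both strands for the sterol response element core TCACNCCA and for CCAAT. For the members 1 entry a gene was counted, but for all promoters every entry of the table, with no limit to the genes tested here. The 2 sets are thus unlike, and no enrichment is read from their shares. The NF-Y motif was present in 18 of 27 member promoters (66.7%) and in 32% of all 35116 promoter entries. The response element core was present in 3 of 27 (11.1%), those of MVK, MSMO1 and SREBF2, and in 3.2% of all promoters, and no match of the 2 motifs overlapped in the members. Of the 10 members that rose under any chemical, 9 had a CCAAT match and 0 had the core. The stretches that hold every match in the 6 genes called most often, and in MSMO1 as an example of a promoter with both motifs, are given here in the direction of the gene, with the matches to either motif in capitals. A match on the opposite strand of the gene reads ATTGG in these lines. These matches describe the sequence and do not show that a factor was bound.
HMGCS1 (chr5:43313498-43313577, minus strand): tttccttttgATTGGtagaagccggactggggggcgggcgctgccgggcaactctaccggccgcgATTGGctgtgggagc
MVD (chr16:88663162-88663260, minus strand): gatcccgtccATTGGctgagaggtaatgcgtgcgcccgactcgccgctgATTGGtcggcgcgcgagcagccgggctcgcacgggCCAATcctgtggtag
LSS (chr21:46228910-46228934, minus strand): cggcgctctgATTGGttgcgtgggc
NSDHL (chrX:152830825-152830993, plus strand): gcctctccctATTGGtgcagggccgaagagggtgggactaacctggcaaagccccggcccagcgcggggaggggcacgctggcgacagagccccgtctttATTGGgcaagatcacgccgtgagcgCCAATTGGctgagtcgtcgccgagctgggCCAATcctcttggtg
DHCR7 (chr11:71448427-71448497, minus strand): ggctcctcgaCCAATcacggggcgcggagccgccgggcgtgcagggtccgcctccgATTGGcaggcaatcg
INSIG1 (chr7:155297698-155297722, plus strand): ccggcctcccATTGGttgcggccgc
MSMO1 (chr4:165327474-165327649, plus strand): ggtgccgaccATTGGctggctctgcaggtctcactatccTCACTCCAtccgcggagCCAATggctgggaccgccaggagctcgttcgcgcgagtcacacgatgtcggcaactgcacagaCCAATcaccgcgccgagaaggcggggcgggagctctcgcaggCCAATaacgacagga
Counted from the start, the first base printed is at -165 in HMGCS1, -169 in MVD, -160 in LSS, -238 in NSDHL, -104 in DHCR7, -180 in INSIG1 and -195 in MSMO1. NSDHL had 5 CCAAT matches, MSMO1 4, MVD 3, HMGCS1 and DHCR7 2 each, and LSS and INSIG1 1 each.

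Under R1881 alone no member passed the test. Against DMSO, 0 of 29 members were called in limma's fit of all arrays, where 0.124% of all genes were called, and 0 in the 90-array fit, where 0.985% were. At an unadjusted p under 0.05 the counts were 0 and 1. Of all genes 0.969% were higher and 0.366% lower at that cut in the first fit, and 2.97% and 2.35% in the second. The R1881 and DMSO arrays overlapped in every member, and 0.727% of all genes had no overlap. HMGCS1, which joins acetoacetyl-CoA and acetyl-CoA into HMG-CoA, averaged 10.92 ± 0.29 in R1881 arrays and 10.97 ± 0.27 in DMSO arrays (SD, n = 6 each). The lowest change was that of the kinase PMVK (-0.29) and the highest that of the sterol desaturase SC5D (0.30), and the median over the members was -0.02, beside 0.00 over all genes.

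Most calls among the cholesterol genes were higher with a chemical added to R1881. In the 90-array fit 32 of 812 combinations of member and chemical were called higher and 2 lower, in 9 of 28 chemicals, where 0.832% of all genes were called over the 28 comparisons. Members rose under Androstenedione, Cyproterone acetate, Progesterone, Mifepristone, Spironolactone, Prochloraz and BisphenolA, and a member fell under DDE and under Flutamide. In the fit of all 96 arrays members were called under Spironolactone and Trenbolone only, and there each call rested on an array that stood apart. For the 26 other chemicals that fit called 0 members, against 0.116% of all genes, with 21 higher and 18 lower at an unadjusted p under 0.05 out of 754 combinations. By chemical, 0.118% to 6.91% of all genes were higher at that cut and 0.183% to 6.48% lower. The calls of the 90-array fit mostly needed both of its steps. Leaving out the 6 arrays without the profile block called 2 members under Progesterone, 1 under Mifepristone and 1 under Flutamide, and 0 under the other 6 of the 9 chemicals. The profile block on all 96 arrays called members under Spironolactone alone of the 9. The heat map of all members and chemicals shows most calls on HMGCS1, MVD, LSS, NSDHL, DHCR7 and INSIG1.

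**Figure D1:**
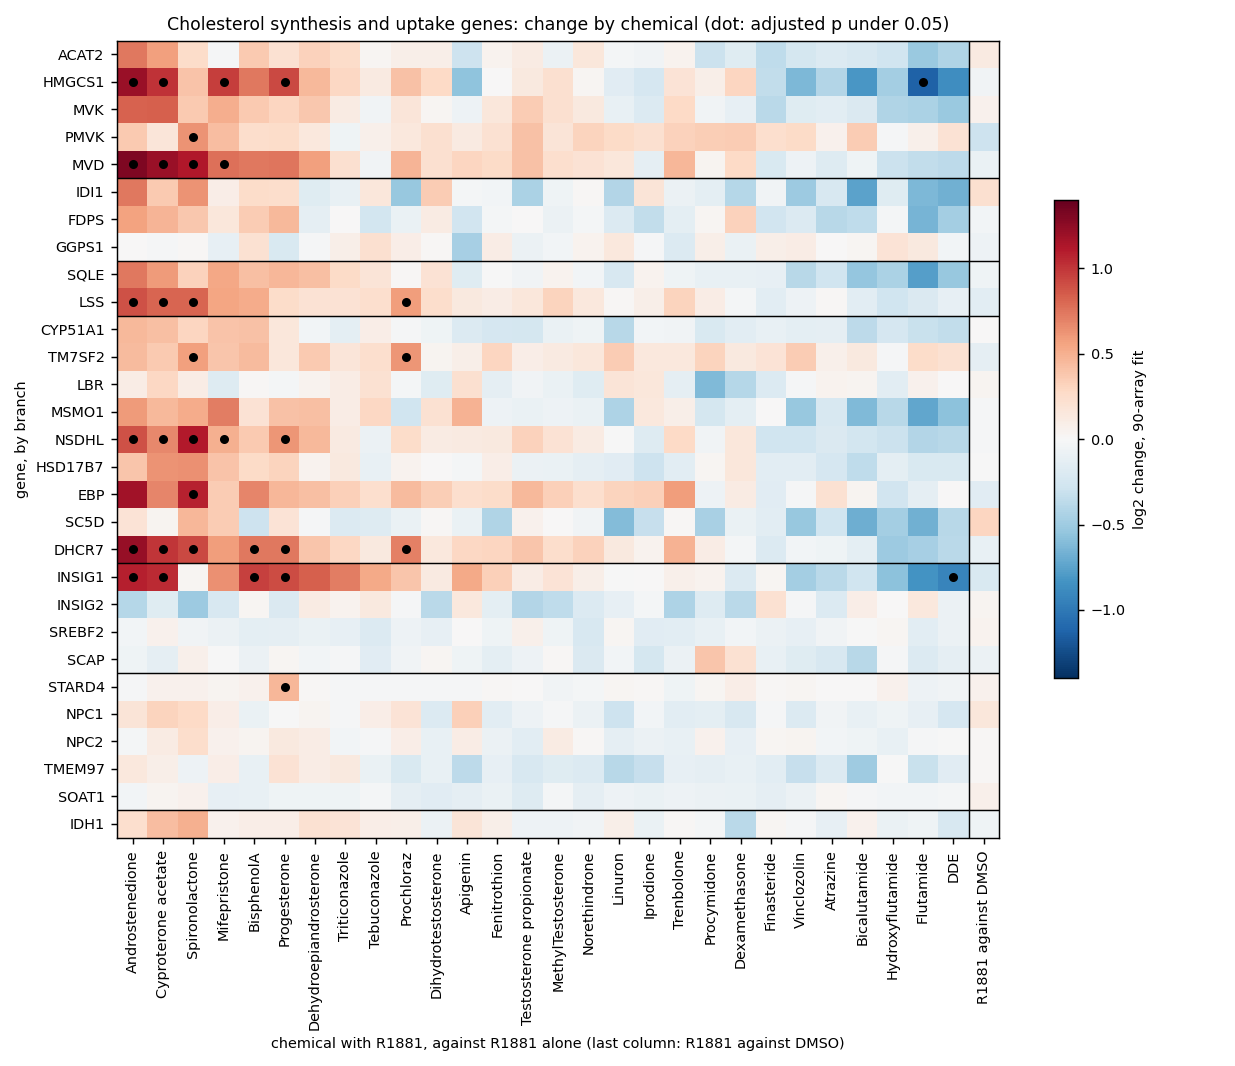
Log2 change of each of the 29 measured genes (rows, grouped by branch with lines between branches) under each chemical with R1881 against R1881 alone, and under R1881 against DMSO in the last column, in the 90-array fit; columns run by the median change over the genes. Dots mark an adjusted p under 0.05: HMGCS1, MVD, LSS, NSDHL, DHCR7 and INSIG1 carry most of the dots, at the left side, and the lowest rows, of transport and storage genes, are pale.

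Under Androstenedione, an androgen precursor, the median change of the members was 0.45 in the 90-array fit, close to the 0.42 under Cyproterone acetate. HMGCS1, MVD, LSS, NSDHL, DHCR7 and INSIG1 rose, by 0.89 to 1.30 on the log2 scale. Over the whole array only 8 genes were called higher (0.0431%), and these 6 members were among them. All 19 measured members of the 4 synthesis branches had a positive change, as did 46.1% of all genes. The medians were 0.82 for mevalonate, 0.56 for isoprenoid units, 0.81 for squalene to lanosterol and 0.45 for lanosterol to cholesterol.

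HMGCS1 read 11.49, 12.40 and 12.32 in the 3 Androstenedione arrays, against 10.55, 11.03 and 11.20 (lowest, median and highest of 6) in R1881 arrays, and the groups did not overlap. It rose by 1.21 (SE 0.22, adjusted p = 0.00238). MVD, the decarboxylase that makes isopentenyl diphosphate, read 9.06, 10.44 and 9.12, against 7.83, 8.47 and 9.42 in R1881 arrays. Those groups overlapped over all arrays but not within a profile: in profile A the Androstenedione arrays had 9.06 and 9.12 and the R1881 arrays 7.83 and 7.86, and in profile B the Androstenedione array had 10.44 and the R1881 arrays 8.24 to 9.42. The share of all genes without overlap within a profile was not counted, and the arrays are few, so nothing is read from this. MVD rose by 1.30 (SE 0.19, adjusted p = 3.14e-05). LSS, which closes squalene epoxide to lanosterol, had 9.58, 10.39 and 9.65, against 8.73, 9.23 and 9.56, with no overlap, and rose by 0.89 (SE 0.15, adjusted p = 0.000254).

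Of the 9 measured genes from lanosterol to cholesterol, NSDHL and DHCR7 were called. NSDHL, which removes methyl groups from lanosterol as part of a decarboxylation step, had 10.04, 11.25 and 10.29 in Androstenedione arrays, against 9.27, 10.08 and 10.47 in R1881 arrays. It overlapped over all arrays, and its change with the profile as a block was 0.90 (SE 0.12, adjusted p = 3.47e-06). DHCR7, which performs the last reduction to cholesterol, had 10.48, 11.64 and 10.96, against 9.42, 10.01 and 10.62, and rose by 1.22 (SE 0.18, adjusted p = 3.14e-05). INSIG1 had 11.43, 11.11 and 12.18, against 9.32, 9.90 and 11.09, with no overlap, and rose by 1.09 (SE 0.21, adjusted p = 0.00944). All 3 Androstenedione arrays lay above all 6 R1881 arrays for 5 members, ACAT2, HMGCS1, LSS, EBP and INSIG1, and for 0.56% of all genes. EBP, the sterol isomerase, had a change of 1.18 (adjusted p = 0.107) and SQLE, squalene epoxidase, one of 0.73 (adjusted p = 0.0992), both short of the threshold. Without Androstenedione array 2 or 3 the calls were 4, with HMGCS1 and INSIG1 lost, and they were 6 or 7 when any other array was left out. With control arrays of the same number averaged, 5 stayed called and INSIG1 did not (adjusted p = 0.138).

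**Figure D2:**
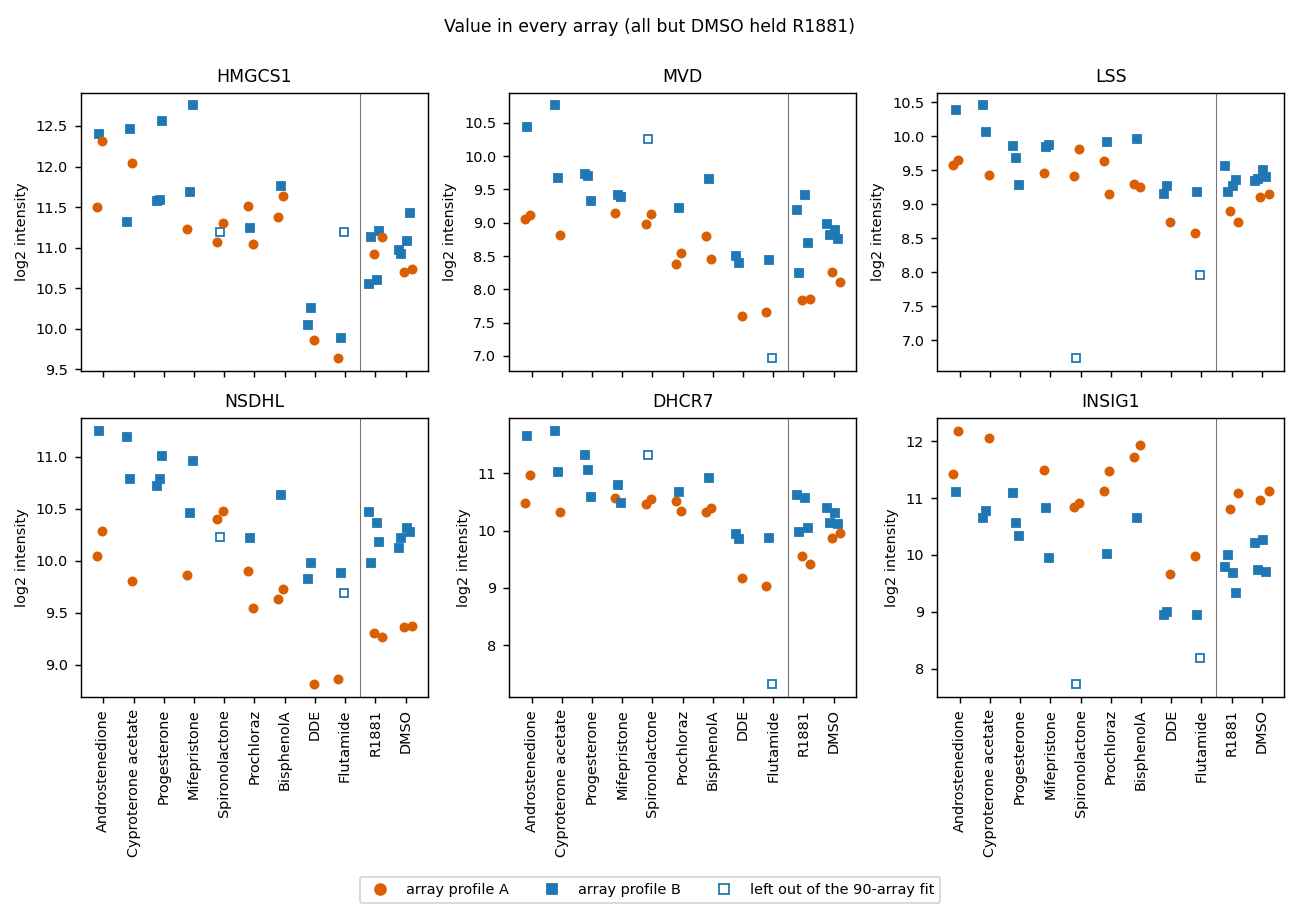
Log2 intensity (y axis) of 6 genes in every array of the 9 chemicals with a call, of R1881 alone and of DMSO (x axis); circles are arrays of profile A, squares of profile B, and open symbols the arrays left out of the 90-array fit. HMGCS1 is above the R1881 arrays in all Androstenedione, Cyproterone acetate, Progesterone, Mifepristone and BisphenolA arrays and below them in all DDE arrays, while among the R1881 arrays profile A lies below profile B in MVD, NSDHL and DHCR7 and above it in INSIG1.

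Cyproterone acetate, a steroidal antiandrogen and progestin given at 20 µM, had calls in the mevalonate, squalene, later sterol and regulator branches. MVD rose by 1.21, INSIG1 by 1.04, HMGCS1 by 1.02, DHCR7 by 1.00, LSS by 0.82 and NSDHL by 0.67. Those were 6 of the 12 genes called higher on the whole array (0.0646%). The comparison shares its R1881 arrays with every other chemical.

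HMGCS1 had 11.31, 12.46 and 12.04 in Cyproterone acetate arrays, against 10.55 to 11.20 in R1881 arrays, and lay above all of them (adjusted p = 0.0199), as did 0.576% of all genes. MVD had 10.76, 9.68 and 8.81, against 7.83 to 9.42 (adjusted p = 5.88e-05). In profile A its Cyproterone acetate array was 0.97 above the mean of the R1881 arrays and in profile B the mean of the 2 arrays was 1.34 above. LSS had 10.45, 10.07 and 9.42, against 8.73 to 9.56 (adjusted p = 0.000636). DHCR7 had 11.74, 11.03 and 10.32, against 9.42 to 10.62 (adjusted p = 0.000705), and NSDHL 11.19, 10.78 and 9.80, against 9.27 to 10.47 (adjusted p = 0.000526). INSIG1 had 10.65, 10.76 and 12.06, against 9.32 to 11.09 (adjusted p = 0.00852). Outside HMGCS1 each of these genes had Cyproterone acetate arrays that overlapped R1881 arrays of the other profile. MVK, the kinase before PMVK, had a change of 0.83 (adjusted p = 0.0985). Without Cyproterone acetate array 1 the calls were HMGCS1 and INSIG1 only, without array 2 or 3 both of these were lost, and HMGCS1 was lost without R1881 array 1 or 1b. With the control arrays averaged the calls were MVD, LSS, NSDHL and DHCR7.

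Progesterone, at 10 µM, raised HMGCS1, INSIG1, DHCR7, NSDHL and STARD4, 5 of the 48 genes called higher (0.258%). HMGCS1 had 11.57, 11.58 and 12.56 in Progesterone arrays, against 10.55 to 11.20 in R1881 arrays, and NSDHL had 10.72, 10.79 and 11.01, against 9.27 to 10.47. Both lay above all R1881 arrays, as did 0.652% of all genes, and their changes were 0.92 (SE 0.22, adjusted p = 0.0377) and 0.61 (SE 0.12, adjusted p = 0.00396). INSIG1 had 11.09, 10.57 and 10.34, against 9.32 to 11.09, and DHCR7 had 11.32, 11.05 and 10.58, against 9.42 to 10.62. Both overlapped R1881 arrays, and they rose by 0.91 (adjusted p = 0.0327) and 0.73 (adjusted p = 0.0397). STARD4 rose by 0.47 (adjusted p = 0.0317) on account of 1 array: its values were 6.66, 6.59 and 7.94 in Progesterone arrays, against 6.45, 6.63 and 6.65 in R1881 arrays. All 3 Progesterone arrays were of profile B. The 5 calls became 0 without Progesterone array 3, 2 without R1881 array 2b or 3, 3 without Progesterone array 1, and 0 with the control arrays averaged, where NSDHL was nearest (adjusted p = 0.0633).

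Mifepristone, a steroidal antagonist of the progesterone and glucocorticoid receptors, raised HMGCS1, MVD and NSDHL at 10 µM, 3 of 51 genes called higher (0.275%). HMGCS1 had 11.23, 11.68 and 12.75 in Mifepristone arrays, against 10.55 to 11.20 in R1881 arrays, with no overlap, and rose by 0.97 (SE 0.22, adjusted p = 0.0126). All Mifepristone arrays were above all R1881 arrays for 0.705% of all genes. MVD had 9.15, 9.41 and 9.38, against 7.83 to 9.42, and rose by 0.78 (SE 0.19, adjusted p = 0.0311). NSDHL had 9.86, 10.46 and 10.96, against 9.27 to 10.47, and rose by 0.50 (SE 0.12, adjusted p = 0.0173). For MVD and NSDHL the Mifepristone arrays overlapped R1881 arrays. The sterol oxidase MSMO1 had a change of 0.72 (adjusted p = 0.138) and INSIG1 one of 0.64 (adjusted p = 0.243). The calls were 1 without Mifepristone array 1, Mifepristone array 3 or R1881 array 2, where the gene was HMGCS1, MVD and HMGCS1 in that order, and 0 with the control arrays averaged.

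Spironolactone, a steroidal mineralocorticoid antagonist, raised 7 members at 20 µM on a background of many calls: 3.66% of all genes were called higher. The 7 were PMVK, MVD, LSS, TM7SF2, NSDHL, EBP and DHCR7. The fit used 2 arrays of profile A. NSDHL had 10.40 and 10.48 in those arrays, against 9.30 and 9.27 in the R1881 arrays of profile A, and rose by 1.11 (SE 0.14, adjusted p = 8.24e-09). MVD had 8.99 and 9.12, against 7.83 and 7.86, and rose by 1.12 (SE 0.22, adjusted p = 0.000242). EBP was at 10.96 in both, against 9.57 and 9.56, and rose by 1.08 (SE 0.32, adjusted p = 0.0208). In these genes the groups, of 2 arrays each, lay apart within the profile, but the share of all genes that did so was not counted.

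LSS had 9.42 and 9.80, against 8.89 and 8.73 in the R1881 arrays of profile A, and rose by 0.81 (adjusted p = 0.000466). DHCR7 had 10.45 and 10.56, against 9.55 and 9.42, and rose by 0.92 (adjusted p = 0.00138). The sterol reductase TM7SF2 rose by 0.57 (SE 0.14, adjusted p = 0.0045) and the kinase PMVK by 0.63 (SE 0.19, adjusted p = 0.0211). HMGCS1 and INSIG1, called under other steroids, had changes of 0.40 (adjusted p = 0.491) and 0.03 (adjusted p = 0.989) here, with a 95% interval for INSIG1 of -0.47 to 0.53. Among the luminal markers FOXA1 fell by 1.99, SPDEF by 1.58 and KRT19 by 0.42 in the same arrays, 3 of 8 measured, and the part of this in the result was not tested. The number of calls was 2 without Spironolactone array 3, which leaves 1 array that is assumed to vary like the other groups, and 5, with PMVK and EBP lost, without Spironolactone array 1, without R1881 array 3b and with the control arrays averaged. In the fit of all 96 arrays, where 17.7% of all genes were called, none of these 7 was called: LSS changed by -0.51 (adjusted p = 0.429), the opposite direction, and the other 6 by 0.12 (EBP) to 0.92 (MVD). There FDPS was higher and TMEM97 lower instead. FDPS, which makes farnesyl diphosphate, had 9.10, 11.91 and 9.08 in Spironolactone arrays, against 8.63, 8.76 and 9.28 in R1881 arrays, a change of 1.18 (SE 0.38, adjusted p = 0.0218). TMEM97, a membrane protein that limits NPC1 levels, had 10.86, 8.84 and 10.75, against 10.54, 10.95 and 11.24, a change of -0.81 (SE 0.26, adjusted p = 0.0201). Both calls came from array 2, which stood apart, and in the 90-array fit, without it, the changes were 0.38 and -0.07. For NPC2, a lysosomal sterol carrier called lower under Trenbolone in the same fit (10.2% of all genes called), the values were 11.34, 10.03 and 11.68 in Trenbolone arrays, against 11.30, 11.73 and 12.01 in R1881 arrays. Its change there was -0.66 (SE 0.20, adjusted p = 0.031), and in the 90-array fit, without the outlying array 2, the change was -0.11.

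Prochloraz, an azole fungicide that inhibits fungal lanosterol demethylase, raised LSS, TM7SF2 and DHCR7 at 20 µM, 3 of 64 genes called higher (0.345%). TM7SF2 had 11.83, 12.47 and 11.79 in Prochloraz arrays, against 11.09, 11.62 and 12.16 in R1881 arrays, and rose by 0.61 (SE 0.12, adjusted p = 0.00292). In profile A its Prochloraz arrays had 11.83 and 11.79 and the R1881 arrays 11.24 and 11.09, and in profile B the Prochloraz array had 12.47 and the highest R1881 array 12.16. How many of all genes lay apart in this way within a profile was not counted. LSS had 9.64, 9.91 and 9.14, against 8.73 to 9.56, and rose by 0.58 (adjusted p = 0.033). DHCR7 had 10.52, 10.66 and 10.35, against 9.42 to 10.62, and rose by 0.70 (adjusted p = 0.0391). CYP51A1, the human lanosterol demethylase, had a change of -0.02 and the isomerase IDI1 one of -0.53 (adjusted p = 0.483), and the median over the members was 0.08. These depend on the profile block: the fit of all arrays gave 0.31 for CYP51A1, 0.09 for IDI1 and a median of 0.19. TM7SF2 was the 1 call left without Prochloraz array 1, R1881 array 2 or R1881 array 3b, and the 1 call with the control arrays averaged (adjusted p = 0.0309).

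BisphenolA, a plastics monomer, raised INSIG1 and DHCR7 at 20 µM, 2 of 37 genes called higher (0.199%). INSIG1 had 11.72, 10.66 and 11.93 in BisphenolA arrays, against 9.32, 9.90 and 11.09 in R1881 arrays, and rose by 0.95 (SE 0.21, adjusted p = 0.0109). DHCR7 had 10.32, 10.91 and 10.40, against 9.42, 10.01 and 10.62, and rose by 0.73 (SE 0.18, adjusted p = 0.0259). Over all arrays both overlapped R1881. Within each profile every BisphenolA array was above every R1881 array, with 2 against 2 arrays in A and 1 against 4 in B. The share of all genes that did so was not counted, so nothing is read from this. HMGCS1 had 11.38, 11.77 and 11.63, above all R1881 arrays, as were 0.851% of all genes, with a change of 0.73 that was not called (adjusted p = 0.169). The calls were 0 without BisphenolA array 1, 2 or 3, 1 without R1881 array 2, 2b, 3 or 3b, 3 and 4 without R1881 array 1b and 1, and 0 with the control arrays averaged.

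DDE, a breakdown product of the insecticide DDT, and Flutamide, a nonsteroidal antiandrogen, gave the lowest medians in the 90-array fit. In the fit of all arrays Trenbolone was lower, at -0.55, with an array that stood apart. Under DDE 25 of 29 members had a negative change, while 49.1% of all genes had a positive one. INSIG1 fell, 1 of 31 genes called lower (0.167%). INSIG1 had 8.94, 8.99 and 9.66 in DDE arrays, against 9.32, 9.90 and 11.09 in R1881 arrays, and fell by 0.92 (SE 0.21, adjusted p = 0.0378). HMGCS1 had 10.05, 10.25 and 9.87, below all R1881 arrays as were 0.727% of all genes, with a change of -0.87 (adjusted p = 0.103). Under Flutamide 24 of 29 had a negative change, while 51.4% of all genes had a positive one. HMGCS1 fell, 1 of 50 genes called lower (0.269%). Its values were 9.63, 9.88 and 11.20 in Flutamide arrays, the last from the array left out, against 10.55, 11.03 and 11.20 in R1881 arrays, and it fell by 1.13 (SE 0.26, adjusted p = 0.0155). SQLE under Flutamide changed by -0.77 (adjusted p = 0.0532). The INSIG1 call under DDE was lost without any DDE array and without any R1881 array other than 2b, with HMGCS1 called instead without R1881 array 1. The HMGCS1 call under Flutamide was lost without Flutamide array 1 or 2 or R1881 array 3b, and SQLE joined it without R1881 array 1 or 1b. With the control arrays averaged neither was called (adjusted p = 0.308 and 0.0979).

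In the other 19 chemicals 0 members were called in limma's 90-array fit, against 0.615% of all genes, with 22 higher and 36 lower at an unadjusted p under 0.05 out of 551 combinations. By chemical, 0.598% to 7.52% of all genes were higher at that cut and 0.576% to 9.05% lower. Bicalutamide, Hydroxyflutamide and Vinclozolin had 7 members lower each, beside 2.71%, 2.52% and 1.93% of all genes. Dehydroepiandrosterone had 7 higher, beside 1.83%. Bicalutamide, a nonsteroidal antiandrogen, had HMGCS1 at 10.01, 9.83 and 10.30, below all R1881 arrays, with a change of -0.81 (adjusted p = 0.0936). Its arrays were all below all 6 R1881 arrays for 3 members, HMGCS1, FDPS and SC5D, and for 1.87% of all genes. HMGCS1 also lay below all R1881 arrays under Vinclozolin, at 10.26, 10.51 and 9.90, with a change of -0.63 (adjusted p = 0.562), and 1.03% of all genes did so. Under Apigenin it lay below them too, at 10.14, 10.45 and 10.50, as did 4.37% of all genes, and its change was -0.57 in the 90-array fit, which leaves out Apigenin array 2 (adjusted p = 0.222). Dehydroepiandrosterone, an adrenal androgen precursor, had HMGCS1 at 11.23, 11.33 and 11.57, above all R1881 arrays as were 0.555% of all genes, and a change of 0.84 in INSIG1 (adjusted p = 0.0699). None of these differences passed the test across all genes.

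The median over the members in each array shows the pathway as a whole. Against the mean of the R1881 arrays it was 0.16 to 0.47 in the 3 Androstenedione arrays, 0.28 to 0.41 under Cyproterone acetate and 0.30 to 0.33 under Mifepristone. The R1881 arrays themselves ranged from -0.15 to 0.02. Under DDE the arrays ranged from -0.23 to -0.14 and under Hydroxyflutamide from -0.27 to -0.15. In the 90-array fit the medians were 0.45 for Androstenedione, 0.42 for Cyproterone acetate, 0.37 for Spironolactone, 0.35 for Mifepristone, 0.25 for BisphenolA and 0.25 for Progesterone, and -0.22 for Flutamide and -0.23 for DDE. The median for Spironolactone rests on leaving out array 2: its arrays had 0.28, -0.83 and 0.43, and the fit of all arrays gave 0.06. The medians over all genes in these comparisons lay between -0.01 and 0.00. Within profiles the Androstenedione medians were 0.42 in A and 0.58 in B, those of Cyproterone acetate 0.44 and 0.38, and those of DDE -0.26 and -0.19.

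**Figure D3:**
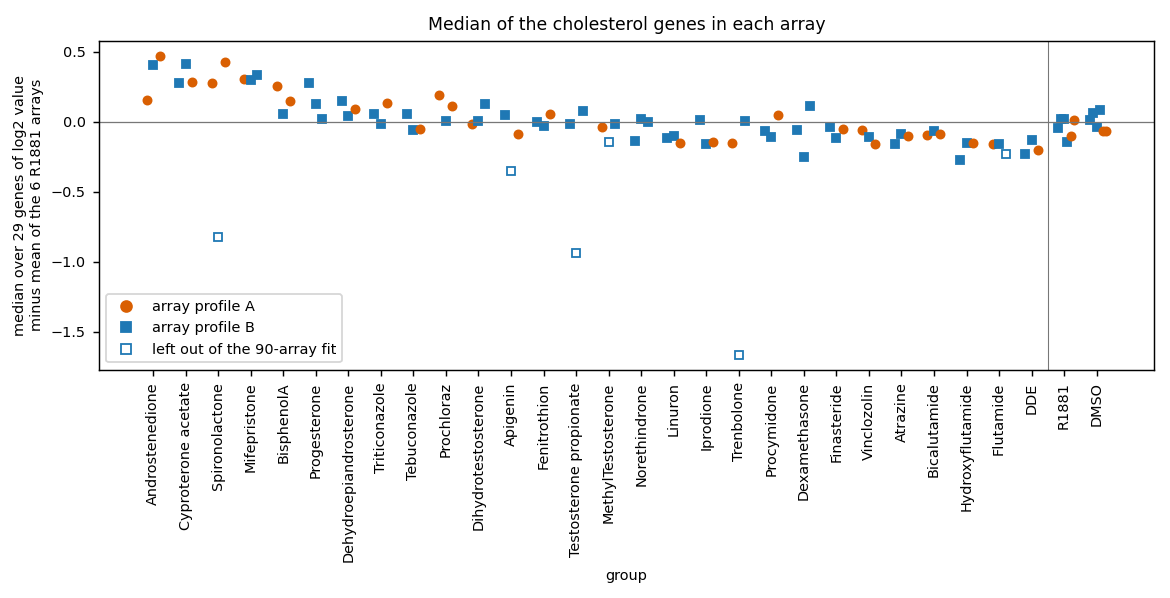
For each array (point), the median over the 29 genes of its log2 value minus the mean of the 6 R1881 arrays (y axis), by group (x axis, ordered by the median change in the 90-array fit, R1881 and DMSO last); circles are profile A, squares profile B and open symbols the arrays left out. All 3 Androstenedione, Cyproterone acetate and Mifepristone arrays lie above the R1881 arrays, and Trenbolone 2, at -1.67, lies lowest.

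By branch, the calls fell on few enzymes. In the mevalonate branch HMGCS1 was called in 5 chemicals, MVD in 4 and PMVK in 1, and ACAT2, which makes acetoacetyl-CoA, and MVK in 0. The isoprenoid branch (IDI1, FDPS and the geranylgeranyl diphosphate synthase GGPS1) had 0 calls in 84 combinations, with 3 higher and 7 lower at an unadjusted p under 0.05 in limma's 90-array fit. By chemical, 0.598% to 8.25% of all genes were higher at that cut and 0.576% to 9.78% lower. Over the 28 comparisons of that fit 0.832% of all genes were called, so nothing is read from this 0 or from those of other members. IDI1 ranged from -0.75 under Bicalutamide to 0.74 under Androstenedione. Between squalene and lanosterol LSS was called in 4 chemicals and SQLE in 0. From lanosterol on, DHCR7 was called in 6 chemicals, NSDHL in 5, TM7SF2 in 2 and EBP in 1, and CYP51A1, LBR, MSMO1, HSD17B7 and SC5D in 0.

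Among the SREBP regulators INSIG1 was called in 5 chemicals. INSIG2, SREBF2 and SCAP, the genes of the second INSIG, of SREBP2 and of its escort, had 0 calls. Over the 28 comparisons 0.832% of all genes were called, so nothing is read from a count of 0 here. INSIG2 had changes of -0.40 under Androstenedione (95% interval -0.74 to -0.07) and -0.51 under Spironolactone (-0.90 to -0.12). SREBF2 ranged only from -0.23 to 0.07 over all chemicals, with a probe close to the array median. Among the transport and storage genes NPC1, the lysosomal sterol exporter, ranged from -0.29 to 0.34, NPC2 from -0.15 to 0.24, SOAT1 from -0.18 to 0.06 and TMEM97 from -0.49 to 0.20, and STARD4 had the 1 call under Progesterone. IDH1, a source of cytosolic NADPH, ranged from -0.38 under Dexamethasone to 0.50 under Spironolactone, with 0 calls.

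**Figure D4:**
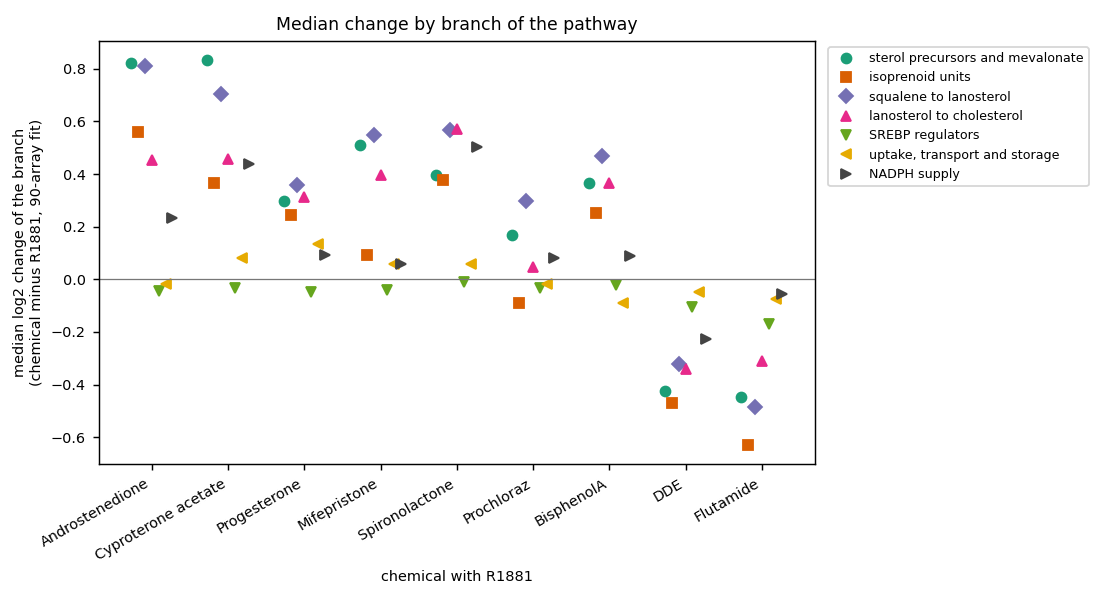
Median log2 change of the measured members of each branch (y axis; symbols by branch) under the 9 chemicals with a call (x axis), chemical minus R1881 in the 90-array fit. The synthesis branches lie between 0.25 and 0.83 under Androstenedione, Cyproterone acetate and Progesterone and between -0.63 and -0.31 under DDE and Flutamide, while the regulators and the transport genes stay between -0.17 and 0.13.

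By class and dose, members rose under 5 of the 8 steroids given at 10 or 20 µM and under 0 of the 5 steroids given at 0.5 µM. Of all genes 0.658% and 0.0388% were called higher in these sets, so nothing about the members is read from the 0, and the doses differ, so the sets stand side by side only. In the 90-array fit the medians at 0.5 µM ran from -0.04 (Trenbolone) to 0.03 (Dihydrotestosterone), with 3 arrays of this dose left out. In the fit of all arrays the Trenbolone median was -0.55, and without Trenbolone array 2 it was 0.09. At 10 and 20 µM they ran from -0.11 under Finasteride, an inhibitor of steroid reductase, and -0.09 under Dexamethasone, a glucocorticoid, to 0.45 under Androstenedione. Of the 15 chemicals that are not steroids, 2 had a member higher and 2 a member lower.

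Related chemicals were compared directly in 6 pairs at equal dose, and 0 of 29 members were called in any pair by limma in either fit. Few genes of any kind were: 0.0915% of all genes in the 90-array fit and 0.0126% in the fit of all arrays, so the count says little about the members. At an unadjusted p under 0.05 the 90-array fit had 8 members higher and 15 lower of 174 combinations, where 2.2% and 2.02% of all genes were. The fit of all arrays had 2 higher and 2 lower, where 0.769% and 0.921% of all genes were. Progesterone and Androstenedione differ at the side chain of the steroid skeleton, where progesterone carries an acetyl group and androstenedione a ketone. LSS had 9.86, 9.68 and 9.28 in Progesterone arrays, against 9.58, 10.39 and 9.65 in Androstenedione arrays, and a difference of -0.63 (95% interval -0.97 to -0.29, adjusted p = 0.169). DHCR7 differed by -0.49 (-0.91 to -0.07) and EBP by -0.72 (-1.36 to -0.08), while HMGCS1 and INSIG1 had intervals that spanned 0. With all arrays the differences were -0.27 for LSS, -0.04 for DHCR7 and -0.59 for EBP, each with an interval that spanned 0. In the 90-array fit ACAT2 (-0.53), MVK (-0.52), MVD (-0.55) and NSDHL (-0.28) were also lower with an interval that left out 0. With all arrays MVD and NSDHL reversed, to 0.05 and 0.31, and ACAT2 and MVK had -0.75 and -0.11, all with intervals that spanned 0. All 3 Progesterone arrays and 1 of the 3 Androstenedione arrays were of profile B. For STARD4 the difference of 0.49 came from the Progesterone array named above.

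Mifepristone minus Progesterone had a median of -0.01, and no member other than STARD4 (-0.43, interval -0.68 to -0.18, adjusted p = 0.151) had an interval that left out 0. For Prochloraz minus Tebuconazole, both azole fungicides, 5 members were higher with an interval that left out 0. DHCR7 differed by 0.57 (0.16 to 0.98), MVD by 0.53 (0.08 to 0.97), TM7SF2 by 0.37, LSS by 0.34 and NSDHL by 0.34. IDI1 and MSMO1 were lower, by -0.69 (-1.24 to -0.14) and -0.57 (-1.07 to -0.07), and all 7 had an adjusted p of 0.964. In the fit of all arrays these differences were 0.35 for DHCR7, 0.23 for MVD, 0.17 for TM7SF2, 0.16 for LSS, 0.04 for NSDHL, -0.07 for IDI1 and -0.05 for MSMO1. Hydroxyflutamide carries a hydroxyl group that Flutamide lacks, and HMGCS1 differed by 0.65 between them with Flutamide array 3 left out (0.08 to 1.22, adjusted p = 1) and by 0.21 with all arrays (-0.44 to 0.85). Vinclozolin was set against Procymidone and Iprodione, dichlorophenyl imide fungicides like itself. HMGCS1 differed by -0.71 from Procymidone (-1.22 to -0.20) and MSMO1 by -0.68 from Iprodione (-1.18 to -0.18), both with adjusted p = 1. With all arrays these were -0.78 (-1.42 to -0.13) and -0.16 (-1.80 to 1.48). An adjusted p of this size does not show that the pairs act alike.

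**Figure D5:**
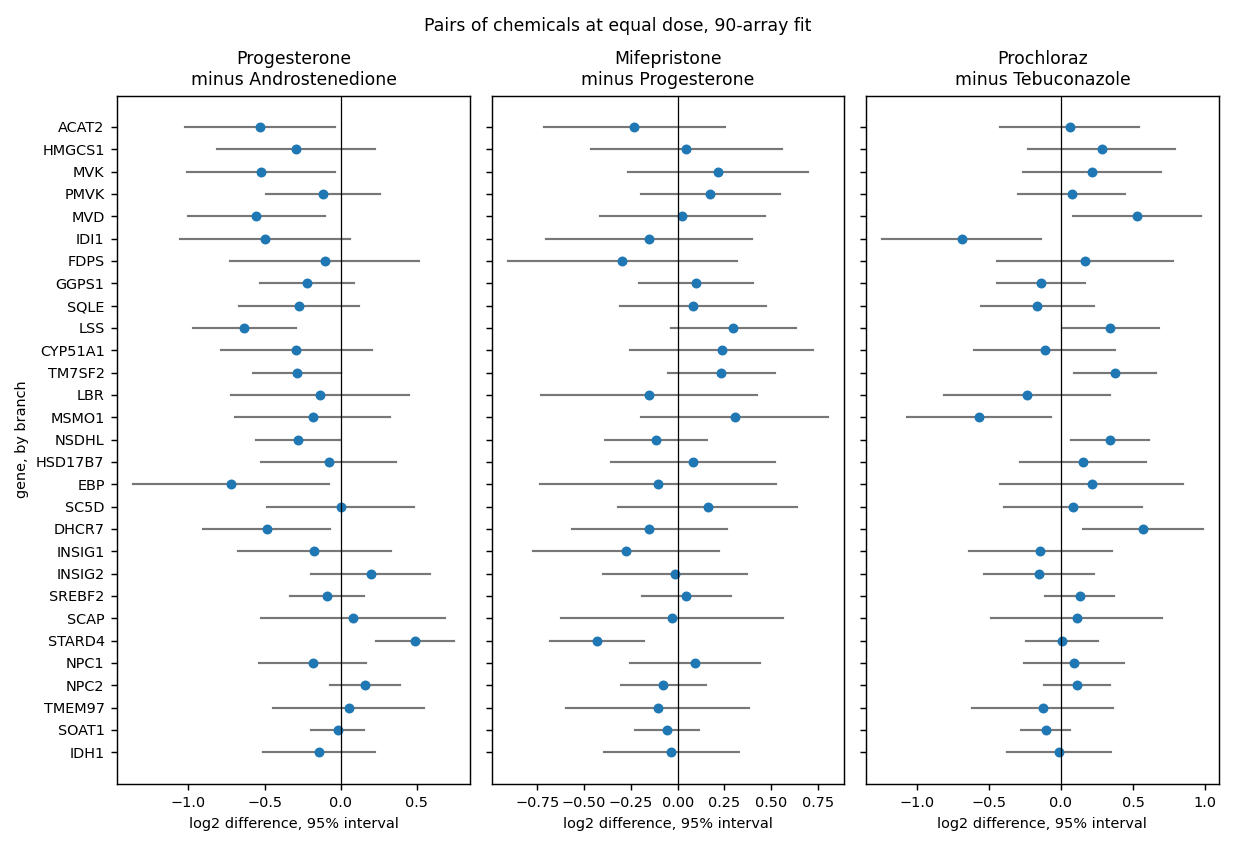
Log2 difference of each gene (points, x axis) with its 95% interval (bars) between Progesterone and Androstenedione, Mifepristone and Progesterone, and Prochloraz and Tebuconazole, in the 90-array fit; the first-named chemical is higher to the right of 0. Against Androstenedione most synthesis genes lie left of 0 and STARD4 right of it, while for Mifepristone the points cluster around 0.

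Neighbouring pathways had few calls in the 90-array fit, where 0.832% of all genes were called over the 28 comparisons. The list of SREBP1 and fatty acid synthesis had 4 calls higher and 1 lower, and that of sterol efflux 4 higher and 2 lower. Among 10 genes of SREBP1 and fatty acid synthesis, SREBF1, the gene of SREBP1, rose under Progesterone by 0.79 (adjusted p = 0.00469), under Cyproterone acetate by 0.70 (adjusted p = 0.0312) and under Apigenin by 0.61 (adjusted p = 0.0248). All 10 had a positive change under Androstenedione, Cyproterone acetate, Progesterone and Mifepristone, with medians of 0.24 to 0.42. Of all genes 45.5% to 52.1% had a positive change under these chemicals. FADS1, a fatty acid desaturase, fell under DDE by 0.51 (adjusted p = 0.0353), and ACSS2, which makes acetyl-CoA, rose under Spironolactone by 1.00 (adjusted p = 0.0114). Of 3 measured genes of sterol efflux and its regulation, ABCG1, a cholesterol exporter, rose under Finasteride by 0.89, under Progesterone by 0.80 and under Bicalutamide by 0.79. MYLIP, a ligase that marks lipoprotein receptors for destruction, rose under Bicalutamide by 0.58 and fell under Dexamethasone by 0.60 and Mifepristone by 0.53.

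The lists of isoprenoid use and of SREBP processing had 1 call higher and 1 lower, and 0 higher and 2 lower, over all 28 chemicals. Of all genes 0.832% were called there, so nothing about these lists is read from the counts. Under Apigenin 532 genes were called higher and 705 lower of 18571, and under Spironolactone 680 and 944. ICMT, a methylase of prenylated proteins, was higher under Spironolactone (0.34) and lower under Mifepristone (-0.36). The ubiquitin-conjugating enzyme gene UBE2G2 fell under Apigenin by 0.74 and the ligase gene RNF145 under Spironolactone by 0.53. As for other cell types, 0 of 3 basal, 0 of 5 fibroblast and 0 of 3 leukocyte markers were called under any chemical in limma's 90-array fit, where 0.832% of all genes were. At an unadjusted p under 0.05 the basal markers had 3 higher and 11 lower of 84 combinations, the fibroblast markers 3 higher and 1 lower of 140, and the leukocyte markers 0 of 84. By chemical, 0.598% to 8.25% of all genes were higher at that cut and 0.576% to 9.78% lower. In the fit of all arrays further listed genes were called under Spironolactone and Trenbolone, whose array 2 stood apart. Under Spironolactone these were COQ2, RCE1, UBE2G2, ERLIN1, VCP, SREBF1, HOXB13 and KRT15, lower, and COL3A1 and PTPRC, higher. Under Trenbolone they were UBE2G2, SCD, EPCAM and FOXA1, all lower. Of 8 luminal markers SPDEF fell under 19 chemicals, by 0.77 to 2.02, and rose under R1881 against DMSO by 1.02 (adjusted p = 1.12e-08). SPDEF fell by 0.96 under Cyproterone acetate, 0.97 under Mifepristone, 0.83 under Progesterone, 0.96 under Prochloraz, 0.98 under BisphenolA, 0.93 under DDE and 1.41 under Flutamide. It was not called under Androstenedione, and the other luminal markers were called only under Spironolactone in the 90-array fit. The part of SPDEF in the results was not tested. In whole-culture RNA fewer cells of a kind and less RNA per cell cannot be told apart.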

How the data were processed

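Expression was measured on 96 Illumina arrays of LAPC4 cells. From their range the deposited values were read as log2 intensities, and the array medians lay between 6.7211 and 6.7212. Per the series' design text the arrays were scanned with iScan and processed by the authors in GenomeStudio and Partek Genomics Suite, and the submitters' processing notes name limma. Any background correction was not given in the sources used here. The number of arrays limits the precision.

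Of 48107 probes, 30113 have 1 gene symbol, 8 have several and 17986 are not listed. Probes above the median of their array in at least 3 arrays were kept (43820), and the brightest per gene gave 18571 genes. This filter passed 29 members; no member value was missing. In R 4.3.3, limma (version 3.58.1, with its moderated test) fitted group means to the 96 arrays without covariates, and p-values were adjusted by Benjamini-Hochberg within each comparison. A further fit left out 6 arrays and took the array profile as a block. The profile came from the first principal component (64.4% of the variance) of the deviations from group means, without the members. Each array, less the mean of the 90 arrays and not of its group, was scored on that component, and the scores were split by k-means. Treatment differences along the component thus stay in the profile. Other alternatives were a replicate block, no filter, cyclic loess, averaged controls and leaving out each array. The replicate numbers were not taken as pairs. Every measured member is named, with full statistics for those past the threshold in either fit, and of the other lists counts and the genes past it, with values for those of the second fit. Promoter sequences are RefSeq's (GRCh38.p14). The members, lists, pairs, profile and the 6 arrays left out were chosen with earlier results of these data known.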

Additional observations from a re-analysis of the deposited data

Results flagged for a closer look

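Within the 6 arrays of each control, 58 groups of values (29 members in R1881 and in DMSO) were searched for an array far from the others, and chance gives such a gap in about 1 in 20 groups. STARD4 in R1881 array 2b was 6.4507, with the other R1881 arrays between 6.5837 and 6.6534, all of them near the dim end of the scale. NPC1 in DMSO array 1 was 7.7612, with the other DMSO arrays between 8.0058 and 8.1434.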

How the results depend on the processing

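The number of members called against R1881 depended on the setting. In the 90-array fit (without the 6 arrays that stand apart, with the array profile as a block) it was 6 for Androstenedione and Cyproterone acetate, 2 for BisphenolA, 1 for DDE and Flutamide, 3 for Mifepristone and Prochloraz, 5 for Progesterone, 7 for Spironolactone and 0 for Trenbolone. With cyclic loess it was 1 for Progesterone, 8 for Spironolactone and 0 for Trenbolone, and with averaged controls 0 for Spironolactone and Trenbolone. A replicate block gave 1 for Testosterone propionate and 4 for Trenbolone. The labels do not say what the numbers share: deviations of same-numbered arrays had a median correlation of 0.2331 (lowest -0.8260) and of others -0.1155, and 55 of 96 arrays correlated best with their own number. Profile A held 11 arrays numbered 1, 0 numbered 2 and 23 numbered 3. No filter on dim probes moved no count. Among settings added after seeing the data, leaving out the 6 arrays without the block gave 1 for Flutamide and Mifepristone, 2 for Progesterone and 0 for Spironolactone, Trenbolone, Androstenedione, Cyproterone acetate, Prochloraz, BisphenolA and DDE. The profile block on all arrays gave 5 for Spironolactone and for Trenbolone and 0 for the other 8 chemicals called in the 90-array fit. The 90-array fit with averaged controls gave 5 for Androstenedione and Spironolactone, 4 for Cyproterone acetate, 1 for Prochloraz and 0 for Trenbolone.

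Leaving out each array in turn from the fit of all arrays, the counts ran from 0 to 2 for Flutamide, 0 to 5 for Spironolactone, 0 to 14 for Trenbolone, and 0 to 1 for Progesterone, for Testosterone propionate, for Mifepristone against Progesterone and for Progesterone against Androstenedione. LSS under Spironolactone, at -0.51 with all arrays, reversed to 0.81 in the 90-array fit, 0.29 with cyclic loess, 0.45 without the 6 arrays, and 0.82 in the 90-array fit with averaged controls. With each array left out in turn it ran between -1.09 (without Spironolactone array 3) and 0.45 (without array 2), and EBP under Spironolactone between -0.29 (without array 1 or 3) and 0.94 (without array 2). NPC2 under Trenbolone was reversed at 0.18 with cyclic loess. Apart from the construction of the settings, the cause was not tested. The dim probes of STARD4 and SOAT1 limit what can be seen of these genes.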
